A study of Mus musculus with 8 samples.

Results

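The genes described here encode the proteins of the cytosolic ribosome, the 80 of 55421 genes in the deposited table that are typed as protein-coding and named Rps or Rpl with a number and at most the letter a, l or x, or Rplp0, Rplp1, Rplp2 or Rpsa. They comprise 31 small subunit and 49 large subunit genes, the latter including the 3 proteins of the P stalk, and they lie on 19 chromosomes. The rule uses names and gene types and no measured value, though it was set with earlier results of these data known. Of the 80, 79 had enough counts to be tested; Rpl10l, a copy of Rpl10 without introns, had 1 count in doxorubicin mouse 1 and none in the other libraries. The RNA came from tibiae and femurs of male wild-type C57BL/6 mice, 15 weeks old at the start, with the ends cut off and the marrow spun out. One group of 4 mice (CTRL) received saline vehicle by intraperitoneal injection on day 0, and the other 4 (DoxoR) received 10 mg/kg doxorubicin by the same route. Bones were collected on day 30, and a library holds the RNA from both tibiae and femurs of 1 mouse. Doxorubicin is an anthracycline used against cancer that intercalates into DNA and poisons topoisomerase II, and the series uses it to study bone loss.

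A ribosome joins a small subunit, which reads the mRNA, with a large subunit, which forms the peptide bond, and each protein is needed in a fixed number of copies. Vertebrate ribosomal protein mRNAs typically begin at a C followed by a run of pyrimidines, the terminal oligopyrimidine or TOP tract, through which the mTOR pathway controls their translation together with that of several translation factors. Excess or unassembled proteins, RPL5 and RPL11 foremost, can bind MDM2 and stabilise p53, which links ribosome assembly to the response to DNA damage.

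To show what these genes share in sequence, windows around an annotated start are given for 9 of them: Rps6, Rps24, Rps27, Rplp0, Rplp2, Rpl39 and Rpl41, whose values are given for each library, and the paralogues Rps27l and Rpl3l. They are from RefSeq on GRCm38.p6 and run 5′ to 3′ from 60 bases before the start to 30 bases from it, so the start is base 61 of 90. Capitals mark the longest run of C and T that opens with C, holds at least 5 bases and begins within 10 bases of the start. A run that opens farther upstream is counted from its first C within those 10 bases. Rps24, Rps27l and Rpl3l have 2 listed starts each, and the first start with such a run is shown.
Rps6, chr4:86857338-86857427, minus strand: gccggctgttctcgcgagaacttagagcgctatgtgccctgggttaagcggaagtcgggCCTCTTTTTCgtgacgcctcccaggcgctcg
Rps24, chr14:24490618-24490707, plus strand: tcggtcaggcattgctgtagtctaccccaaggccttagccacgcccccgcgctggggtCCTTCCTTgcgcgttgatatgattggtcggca
Rps27, chr3:90213619-90213708, minus strand: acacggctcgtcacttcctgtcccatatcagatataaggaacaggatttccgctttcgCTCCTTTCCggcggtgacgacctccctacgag
Rplp2, chr7:141447591-141447680, plus strand: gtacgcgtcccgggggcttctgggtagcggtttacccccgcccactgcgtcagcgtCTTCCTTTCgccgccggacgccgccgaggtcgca
Rpl39, chrX:37085193-37085282, minus strand: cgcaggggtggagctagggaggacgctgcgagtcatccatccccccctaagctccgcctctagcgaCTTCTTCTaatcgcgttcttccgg
Rps27l, chr9:66946026-66946115, plus strand: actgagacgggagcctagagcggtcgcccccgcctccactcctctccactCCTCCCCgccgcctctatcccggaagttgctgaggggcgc
Rplp0, chr5:115559407-115559496, plus strand: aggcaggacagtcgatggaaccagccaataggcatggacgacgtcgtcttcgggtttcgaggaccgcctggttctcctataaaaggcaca
Rpl41, chr10:128549139-128549228, minus strand: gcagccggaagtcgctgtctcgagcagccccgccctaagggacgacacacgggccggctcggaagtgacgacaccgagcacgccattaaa
Rpl3l, chr17:24727766-24727855, plus strand: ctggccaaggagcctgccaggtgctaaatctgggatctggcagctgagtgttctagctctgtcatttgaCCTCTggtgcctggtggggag
In Rps6, Rps24, Rps27 and Rplp2 the tract spans or touches the start itself, in Rpl39 it begins at base 7 of the transcript, in Rps27l it ends before the start and belongs to a run that opens farther upstream, and Rplp0 and Rpl41 held no such run at the listed start. The tract of Rpl3l has 5 bases, the shortest that counts here. RefSeq windows were at hand for 60 of the 80 genes. By this definition 38 of the 60 (63.3%) had a tract at 1 start or more, against 9297 of 27025 genes of any kind (34.4%). Over the 300 bases from 250 before the start to 50 after it, searched on both strands, CCGGAAG, a core recognised by ETS factors, was in 25 of the 60 (41.7%) against 9.93% of all genes, and CTCGCGAG was in 7 (11.7%) against 1.04%. CCAAT was in 19 (31.7%) against 41.1%, TATAAA in 6 (10%) against 15.7%, and CACGTG in 6 (10%) against 8.09%. A match describes the letters in the window and is no evidence that a factor binds there. Among tested genes, the median log2 fold change of doxorubicin over vehicle was -0.056 for the 37 with a tract and 5.99e-05 for the 22 without.

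No ribosomal protein gene passed the test in the comparison of the groups, which asks whether bones differ in ribosomal protein mRNA 30 days after doxorubicin. With edgeR's quasi-likelihood test, 0 of the 79 passed an adjusted p of 0.05, where 0% of all 17035 tested genes did. DESeq2, which called 29 genes in all, and limma-voom also called 0 of the 79. At an unadjusted p under 0.05 there were 0 members in either direction, against 2.13% of all tested genes higher and 3.23% lower in doxorubicin bones. The smallest unadjusted p was 0.308, for Rplp0, and the smallest adjusted p was 0.860. The values of the 2 groups overlapped for all 79, while 1.64% of all tested genes were higher and 1.95% lower in every doxorubicin library than in every vehicle library. Log2 fold changes ran from -0.23 for Rpl39 to 0.32 for Rpl3l, with a median of -0.042 against 0.036 for all tested genes, and 55 of 79 lay below 0 (69.6%) against 42.8% of all tested genes. The standard errors (SE, given after ± for a fold change) had a median of 0.188. A p that misses the threshold does not show that the levels are equal.

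**Figure D1:**
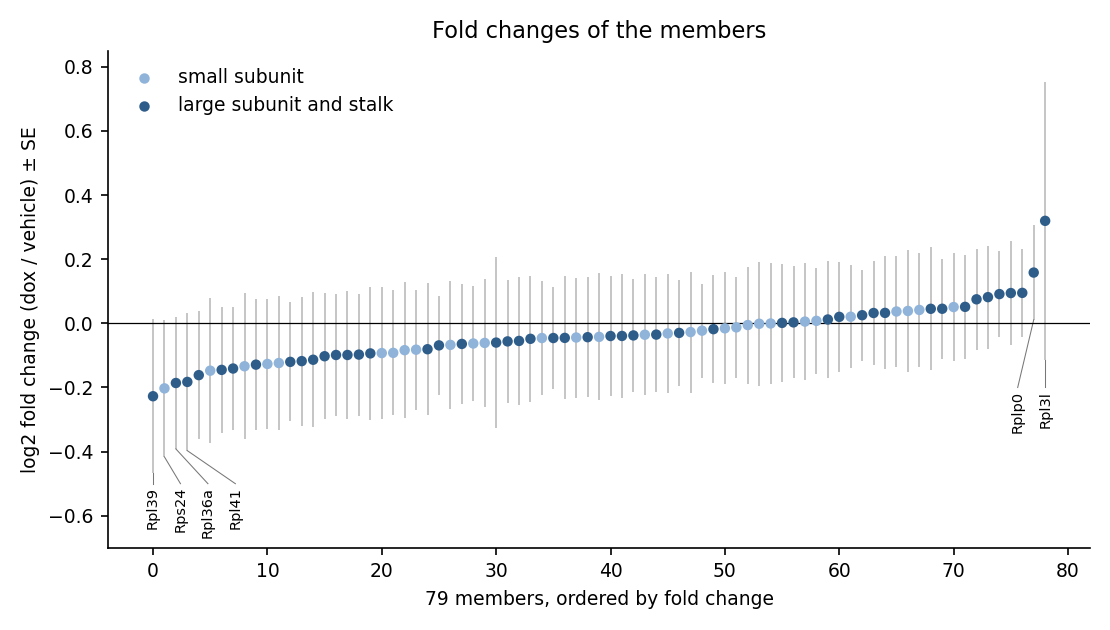
Log2 fold change of doxorubicin over vehicle for the 79 tested ribosomal protein genes, ordered by size, with the standard error from edgeR as bars; pale points are small subunit genes and dark points large subunit and stalk genes. The points run from -0.23 (Rpl39) to 0.32 (Rpl3l), and the bar of Rplp0 alone does not reach 0.

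The libraries differed far more than the groups. Ribosomal protein genes made up a share of all counts of 2.61, 3.01, 4.50 and 2.77 percent in vehicle mice 1 to 4 and 2.45, 2.86, 3.97 and 2.88 percent in doxorubicin mice 1 to 4. The mean was 3.22 ± 0.868 percent in vehicle and 3.04 ± 0.649 percent in doxorubicin bones (SD, n = 4), so the groups overlapped and their means lay closer than 1 SD. Vehicle mouse 3 and doxorubicin mouse 3 held the 2 highest shares, and without them the means were 2.80 and 2.73 percent. Vehicle mouse 3 had the highest CPM (CPM are counts scaled to library size, corrected by TMM) of 64 of the 79 genes and doxorubicin mouse 3 of 14, against 19.0% of all tested genes that were highest in vehicle mouse 3. The lowest CPM was in vehicle mouse 1 for 40 genes and in vehicle mouse 4 for 35. The vehicle group therefore held both ends of the range for most genes. In bulk bone, fewer cells of a type and less RNA per cell cannot be told apart.

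**Figure D2:**
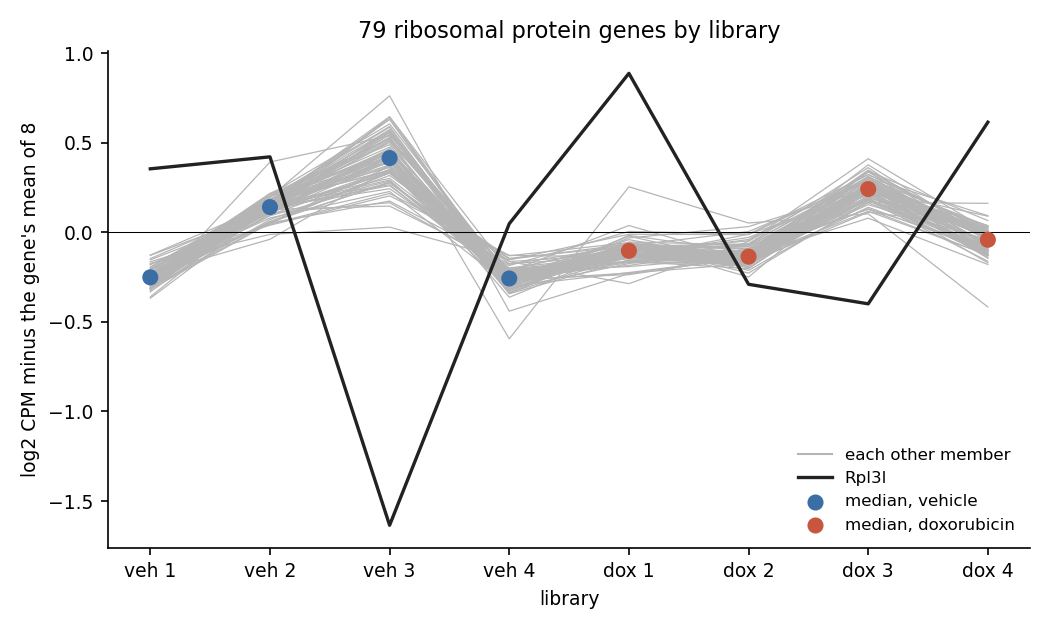
Log2 CPM of each of the 79 genes in the 8 libraries, as the difference from the gene's own mean over the 8; grey lines are genes, the black line is Rpl3l, and points are the median over the 79 genes, blue in vehicle and red in doxorubicin libraries. The lines run together, with medians of -0.25 in vehicle mouse 1 and 0.41 in vehicle mouse 3. Rpl3l is low in the mice numbered 3, where the medians are high.

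Across libraries the genes varied together, as 1 block. Against the mean of the other 3 vehicle libraries, 78 of 79 genes were higher in vehicle mouse 3, by 0.14 (Rplp0) to 0.91 (Rpl39) on the log2 scale with a median of 0.53. Against the other 3 doxorubicin libraries, 78 of 79 were higher in doxorubicin mouse 3, with a median of 0.33. Rpl3l was the exception in both, at -1.91 and -0.80. The SD of log2 CPM over the 8 libraries had a median of 0.255 for the members and 0.269 for all tested genes. Once the members' common mean in each library was taken away, the median SD of a member was 0.0657, and 64 of 79 genes were under 0.1. The log2 ratio of large to small subunit counts stayed between 0.50 and 0.56 in all 8 libraries. Relative to the rest, Rpl3l had the widest spread (SD 0.972), followed by Rpl39l (0.270), Rplp0 (0.178) and Rpl39 (0.163).

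Markers of other cells moved with the libraries. The 15 skeletal muscle genes, such as Acta1 and Ckm, made up a share of counts of 3.35, 3.02, 0.677 and 3.34 percent in vehicle mice 1 to 4 and 4.08, 2.29, 2.05 and 4.24 percent in doxorubicin mice 1 to 4. Vehicle mouse 3 thus had the least muscle RNA and the most ribosomal protein RNA. In the median over 16 neutrophil genes, doxorubicin mouse 3 was 0.53 and vehicle mouse 3 0.24 above the genes' means, with doxorubicin mouse 4 at 0.29, where the members were at -0.042. Over 15 erythroid genes the mice numbered 3 were at 0.55 and 0.43. Over 16 proliferation genes these libraries were 0.54 and 0.29 above. Other lists were not high in both: over 14 B lymphoid genes doxorubicin mouse 3 was at -0.11 and vehicle mouse 3 at 0.39. Over 13 osteoclast genes they were at 0.19 and -0.077, and over 15 osteoblast genes at -0.35 and -0.16. Vehicle mouse 4, low in ribosomal protein RNA, was 0.52 above the mean for the erythroid genes, so the block followed neither the neutrophil nor the erythroid list in every library. The part of muscle, marrow or dividing cells in the block was not tested. As to the tissue label, all 15 osteoblast and 13 osteoclast genes were detected, with summed levels of 6239 to 19870.3 and 989.9 to 1895 CPM, beside 11634 to 24810 CPM for the neutrophil genes, none of which was at 0.

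**Figure D3:**
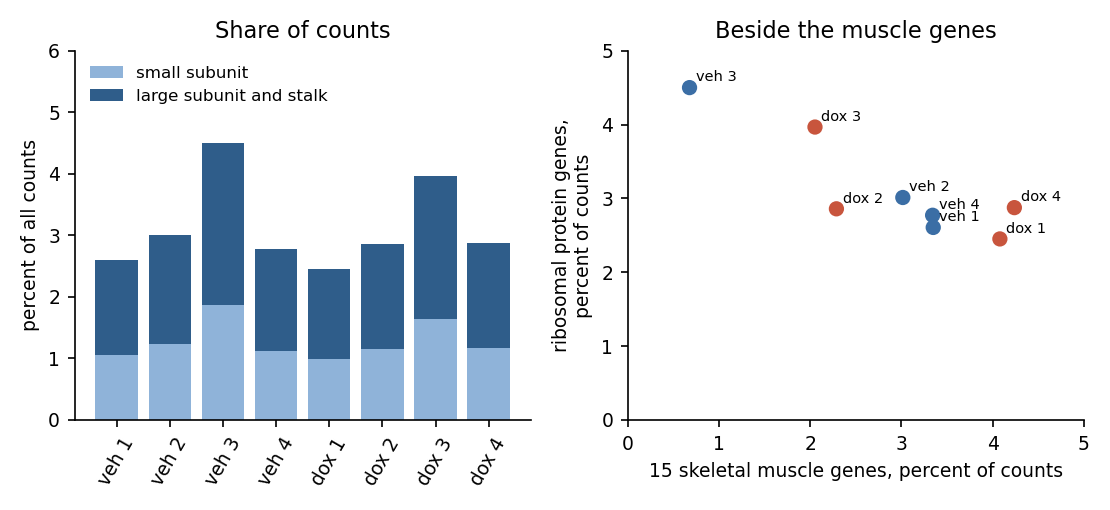
Left, the percentage of each library's counts in ribosomal protein genes, with the small subunit in pale and the large subunit with the stalk in dark blue. Right, the same total against the percentage in 15 skeletal muscle genes, 1 point per library, blue for vehicle and red for doxorubicin; vehicle mouse 3 lies at 4.50 and 0.677 percent.

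The direction of the small common shift depended on single libraries. Without vehicle mouse 3 the median log2 fold change was 0.066, with 75 genes above and 4 below 0. Without doxorubicin mouse 3 it was -0.16, with 4 above and 75 below, and without vehicle mouse 4 likewise -0.16, with 4 above and 75 below. Without vehicle mouse 1 it was -0.12, with 6 above and 73 below. Leaving out both mice numbered 3, an alternative chosen after the data were seen, gave -0.022, with 22 above and 57 below. Adjusting for the mean level of the neutrophil and erythroid genes gave 0.032, with 54 above and 25 below. Under all of these, 0 members passed the adjusted threshold and 0 reached an unadjusted p under 0.05.

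**Figure D4:**
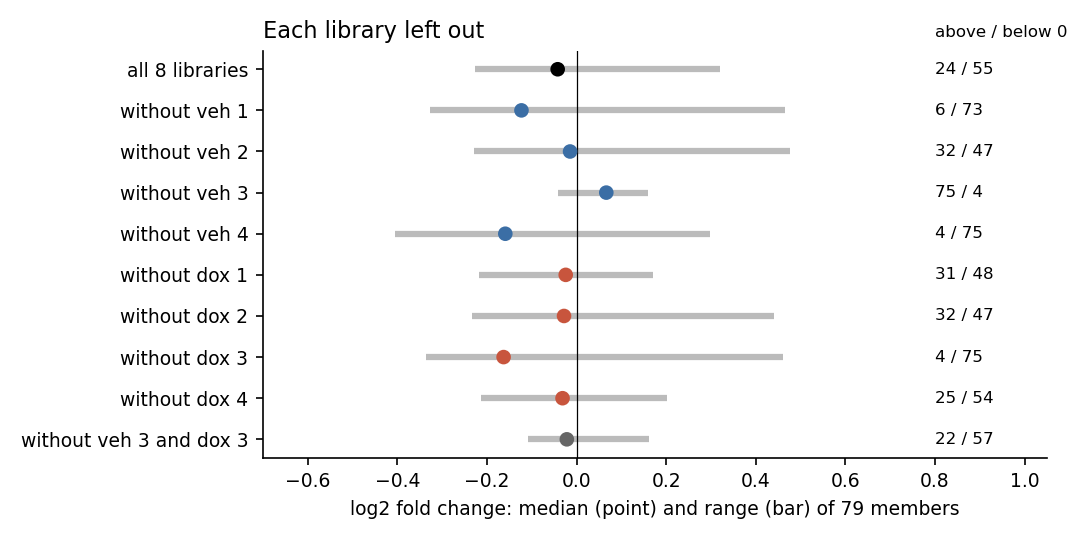
Median (point) and range (bar) of the log2 fold changes of the 79 genes with all 8 libraries, without each in turn, and without both mice numbered 3; the numbers at the right count genes above and below 0. The median moves from -0.042 to 0.066 without vehicle mouse 3, and to -0.16 without doxorubicin mouse 3 or vehicle mouse 4.

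Of the P stalk, the flexible arm of the large subunit that recruits translation factors, Rplp0 had the smallest p of all members. It was at 683, 764, 785 and 692 CPM in vehicle mice 1 to 4 and 764, 763, 948 and 789 CPM in doxorubicin mice 1 to 4. Doxorubicin mice 1 and 2 lay inside the vehicle range and mice 3 and 4 above it, so the groups overlapped. The log2 fold change was 0.16 ± 0.147 (edgeR adjusted p = 0.860). Its partners, which bind it as dimers, were less apart. Rplp1 was at 565 ± 127 CPM over the vehicle mice and 548 ± 74.5 CPM over the doxorubicin mice (SD, n = 4), with a log2 fold change of -0.043 ± 0.187. Rplp2 was at 258, 317, 369 and 263 CPM in vehicle mice 1 to 4 and 279, 249.7, 330.0 and 292 CPM in doxorubicin mice 1 to 4, with a log2 fold change of -0.069 ± 0.154. Rplp0 is often used as a reference gene, and it followed the block less closely than its partners: in vehicle mouse 3 it held 1.92 percent of the members' counts, against 2.27 to 2.72 percent in the other 7 libraries.

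RPL5 and RPL11 carry the 5S RNA into the large subunit and are the best known ribosomal activators of p53. Rpl5 was at 463, 585, 727 and 422 CPM in vehicle mice 1 to 4 and 484, 494, 635 and 512 CPM in doxorubicin mice 1 to 4. Rpl11 was at 326, 449.5, 584 and 339 CPM in vehicle mice 1 to 4 and 372, 370.3, 491 and 374 CPM in doxorubicin mice 1 to 4. Both were lowest in vehicle mice 1 and 4 and highest in vehicle mouse 3, with the doxorubicin values between. Their log2 fold changes were -0.048 ± 0.196 and -0.081 ± 0.206, with edgeR adjusted p of 0.960 and 0.940. Rpl22, which has a part in lymphocyte development, had a log2 fold change of -0.099 ± 0.198.

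In the small subunit, Rps24 had the second smallest p among members. Its protein is 1 of those mutated in Diamond-Blackfan anaemia, as is that of Rps19. Rps24 was at 705, 968, 1272 and 704 CPM in vehicle mice 1 to 4 and 787, 762, 883 and 738 CPM in doxorubicin mice 1 to 4. The doxorubicin values lay inside the vehicle range, whose upper end was vehicle mouse 3. The log2 fold change was -0.20 ± 0.214 (edgeR adjusted p = 0.871). Rps19 was at 238 ± 58.6 CPM over the vehicle mice and 232 ± 37.4 CPM over the doxorubicin mice, with a log2 fold change of -0.035 ± 0.188. Rps6, the substrate of S6 kinase downstream of mTOR, was at 474, 616, 723 and 489 CPM in vehicle mice 1 to 4 and 517, 527, 703 and 564 CPM in doxorubicin mice 1 to 4. Its log2 fold change was 0.0055 ± 0.184, the 2 groups having nearly the same mean. Rps27a, which is made as a fusion with ubiquitin, was at 563 ± 182 CPM over the vehicle mice and 513 ± 77.7 CPM over the doxorubicin mice, with a log2 fold change of -0.13 ± 0.227. Rpsa, also known as the laminin receptor, was at 983 ± 173 CPM over the vehicle mice and 1009.8 ± 166 CPM over the doxorubicin mice, the highest mean CPM of a member.

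Rpl39, Rpl41, Rpl36a, Rpl34 and Rpl32, all of the large subunit, were among the 8 members with the smallest p, each with a fold change below 0. Rpl39, at the mouth of the peptide exit tunnel, was at 217, 285, 421 and 183 CPM in vehicle mice 1 to 4 and 212, 225, 279 and 229 CPM in doxorubicin mice 1 to 4. Its log2 fold change was -0.23 ± 0.240 (edgeR adjusted p = 0.871). Rpl41, whose product is the shortest of all, was at 355, 458, 659.8 and 363 CPM in vehicle mice 1 to 4 and 377, 374, 491 and 375 CPM in doxorubicin mice 1 to 4, with a log2 fold change of -0.18 ± 0.214. Rpl36a was at 239 ± 76.1 CPM over the vehicle mice and 210.4 ± 21.7 CPM over the doxorubicin mice, with a log2 fold change of -0.19 ± 0.206. Rpl34 and Rpl32 had log2 fold changes of -0.16 ± 0.199 and -0.15 ± 0.197. In each of these 5 genes vehicle mouse 3 was the highest library.

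Composition within the block can be read as each gene's share of the members' counts, a scaling chosen after the data were seen. On it, 0 of 79 genes passed the adjusted threshold and 0 reached an unadjusted p under 0.05, against 2.23% of all tested genes. The smallest edgeR p was 0.365. This fit takes each gene's spread partly from all tested genes, and the members' median SE in it was 0.145. The median SD of a member around the members' common mean was 0.0657, so the test could miss small changes in share. The groups did not overlap for 4 genes of 79: Rpl36a, Rpl41 and Rpl23a were lower and Rpl18 was higher in doxorubicin bones. Over all tested genes 1.76% did not overlap on this scale, against 1.64% higher and 1.95% lower with TMM. This scaling takes the members' common variation out of the members and puts it into genes that do not share it. The 1.76% is therefore not a like measure for the members. Against the members' mean log2 CPM instead, Rpl35 was also lower without overlap. Rpl36a made up 0.716, 0.734, 0.842 and 0.703 percent of the members' counts in vehicle mice 1 to 4 and 0.702, 0.693, 0.666 and 0.692 percent in doxorubicin mice 1 to 4. Rpl41 made up 1.38, 1.36, 1.62 and 1.41 percent of the members' counts in vehicle mice 1 to 4 and 1.32, 1.33, 1.35 and 1.27 percent in doxorubicin mice 1 to 4. Rpl18 made up 0.728, 0.700, 0.698 and 0.738 percent of the members' counts in vehicle mice 1 to 4 and 0.752, 0.765, 0.756 and 0.770 percent in doxorubicin mice 1 to 4. The steps are small, from 0.749 ± 0.0636 to 0.688 ± 0.0154 percent for Rpl36a (SD, n = 4). Its log2 fold change on this scale was -0.12 ± 0.143, where the SE is that of the fit and not the spread of these shares. Rpl18 and Rpl35 were named after their values were seen.

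Levels between genes were compared as CPM per kb of the principal transcript. Rplp1 was highest at 1115, followed by Rpl23a at 1039, Rps12 at 992, Rps27 at 906 and Rps27a at 845. The lowest tested were Rpl39l at 5.44, Rpl3l at 59.0, Rps27l at 89.6, Rps20 at 90.7 and Rpl28 at 214 CPM per kb. The annotated length decides part of this order: the principal transcript of Rps20 has 3706 bases, and per kb of coding sequence Rps20 was 20th of 80, while Rpl41, with 75 coding bases, came first. The 3 paralogues at the bottom stayed there on both scales.

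Those paralogues stand in for a common protein in some tissues. RPL3L replaces RPL3 in striated muscle, RPL39L is best known from testis, and RPS27L is a p53 target close to RPS27. Rpl3l was at 92.9, 97.3, 23.4 and 75.1 CPM in vehicle mice 1 to 4 and 134, 59.4, 55.1 and 111 CPM in doxorubicin mice 1 to 4. It was lowest in vehicle mouse 3, where the muscle genes were also lowest, and its log2 fold change was 0.32 ± 0.434 (edgeR adjusted p = 0.886). Rpl3 was at 442 ± 85.0 CPM over the vehicle mice and 456 ± 95.1 CPM over the doxorubicin mice, with a log2 fold change of 0.045 ± 0.191. As a percentage of Rpl3 counts, Rpl3l counts were 24.7, 22.6, 4.14 and 19.0 percent in vehicle mice 1 to 4 and 37.1, 13.9, 9.37 and 25.0 percent in doxorubicin mice 1 to 4. The spread of this ratio within each group was wide, with the muscle share of the same libraries running from 0.677 to 4.24 percent of counts.

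Rps27l was at 37.3, 49.8, 56.0 and 35.2 CPM in vehicle mice 1 to 4 and 42.3, 38.1, 49.6 and 49.4 CPM in doxorubicin mice 1 to 4, with a log2 fold change of 0.0078 ± 0.166. Rps27 was at 247, 348, 460.4 and 250.05 CPM in vehicle mice 1 to 4 and 293, 287, 335 and 281 CPM in doxorubicin mice 1 to 4, highest in vehicle mouse 3, with a log2 fold change of -0.13 ± 0.204. As a percentage of Rps27 counts, Rps27l counts were 15.1, 14.3, 12.2 and 14.1 percent in vehicle mice 1 to 4 and 14.5, 13.3, 14.8 and 17.6 percent in doxorubicin mice 1 to 4. Doxorubicin mouse 4 had the highest ratio and vehicle mouse 3 the lowest, and the groups overlapped. Rpl39l was at 2.80 to 6.14 CPM, between 1.38 and 2.38 percent of Rpl39 counts, with a log2 fold change of -0.060 ± 0.267. In exact permutation tests over the 8 libraries (two-sided), the log2 ratio differed between groups by 0.11 for Rps27l to Rps27 (p = 0.400), 0.36 for Rpl3l to Rpl3 (p = 0.657), 0.16 for Rpl39l to Rpl39 (p = 0.486) and -0.032 for Rpl22l1 to Rpl22 (p = 0.771). All 4 had an adjusted p of 0.771, and 70 arrangements cannot give a p below 0.0286. The ratios for Rpl10l and Rps4l were not computed, since they lacked counts or a protein-coding row.

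Some ribosomal proteins and close relatives have symbols that the rule leaves out. Of 8 tested, among them Rps3a1, Fau and Rack1, 3 lay above and 5 below 0 (median log2 fold change -0.021), and 6 were highest in vehicle mouse 3, the others (Rpl7l1 and Rpl36al) in doxorubicin mouse 3. Rps27rt was at 3.99 ± 1.13 CPM over the vehicle mice and 3.07 ± 1.25 CPM over the doxorubicin mice, with a log2 fold change of -0.39 ± 0.297, and Rpl22l1 at 64.2 ± 20.4 CPM over the vehicle mice and 58.3 ± 3.50 CPM over the doxorubicin mice, with a log2 fold change of -0.14 ± 0.199; none passed the test.

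Other genes with TOP mRNAs, mostly translation factors beside such genes as Npm1, Hnrnpa1 and Tpt1, deviated in the same direction in both mice numbered 3. Over 20 of them the median deviation was 0.21 in vehicle mouse 3 and 0.18 in doxorubicin mouse 3, against 0.41 and 0.24 for the members, and 10 lay above and 10 below 0 (median -0.0065). Eif3f, a subunit of initiation factor 3, was at 75.2 ± 5.30 CPM over the vehicle mice and 86.7 ± 3.31 CPM over the doxorubicin mice, with a log2 fold change of 0.20 ± 0.0942. Eif4b, a helicase cofactor, was at 233 ± 6.20 CPM over the vehicle mice and 265 ± 17.4 CPM over the doxorubicin mice, with a log2 fold change of 0.19 ± 0.107. These 2 and Eef2, the translocation factor, were higher in every doxorubicin library than in every vehicle library, as were 1.64% of all tested genes (1.95% were lower), and no gene of the list had an unadjusted p under 0.05. The 13 rows of 12 snoRNA host genes, also TOP transcripts, had 2 above and 11 below 0 (median -0.12) and were 0.29 above their means in vehicle mouse 3. The smallest p belonged to Snhg1 and Gas5, with log2 fold changes of -0.26 ± 0.162 and -0.20 ± 0.140.

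Genes that make ribosomes or start translation stood near their own means in vehicle mouse 3, where the block was highest, but less so in doxorubicin mouse 3. In vehicle mouse 3 the median deviation was 0.053 for 40 biogenesis genes, 0.014 for 14 RNA polymerase I genes and -0.056 for 27 initiation factors. In doxorubicin mouse 3 it was 0.19, 0.079 and 0.17 for these lists, against 0.24 for the members. Of the biogenesis genes 25 lay above and 15 below 0 in log2 fold change, with Gnl3 at -0.21 ± 0.119 and Pes1 at 0.19 ± 0.118. Of the polymerase I genes 9 lay above and 5 below, with Taf1d at -0.25 ± 0.134 and Twistnb at -0.20 ± 0.128. Of the initiation factors 18 lay above and 9 below, with Eif3c at 0.20 ± 0.0995 and Eif5 at -0.20 ± 0.130. Groups did not overlap for Eif3c, which was higher, and Eif3a, which was lower in doxorubicin bones, and for 0 biogenesis and 0 polymerase I genes. Over all tested genes 1.64% were higher and 1.95% lower without overlap. Of 20 chaperones and degradation factors of ribosomal proteins 11 lay above and 9 below, with Grwd1 at 0.21 ± 0.120 and Mdm4, a p53 inhibitor, at -0.16 ± 0.104. Groups did not overlap for 1 of these 20, Grwd1, which was higher. Among 20 regulators of TOP mRNAs and of ribosome synthesis, 11 above and 9 below, Myc was at 27.7 ± 14.0 CPM over the vehicle mice and 16.9 ± 2.41 CPM over the doxorubicin mice, with a log2 fold change of -0.71 ± 0.295 (edgeR unadjusted p = 0.0380, adjusted p = 0.856). Vehicle mouse 1 was at 47.7 CPM, the other 7 libraries between 14.5 and 26.7 CPM, and without vehicle mouse 1 the log2 fold change of Myc was -0.31. Eif4ebp1, the mTOR target that holds back initiation, was at 26.7 ± 1.21 CPM over the vehicle mice and 31.0 ± 2.43 CPM over the doxorubicin mice, with a log2 fold change of 0.22 ± 0.0988. It was the 1 gene of the 20 regulators whose groups did not overlap.

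The mitochondrial ribosome, a separate machine whose proteins come from other nuclear genes, is given beside the cytosolic one. Of its 78 genes, 77 lay above and 1 below 0, where 42.8% of all tested genes lay below 0. The median log2 fold change was 0.14, against -0.042 for the cytosolic members and 0.036 for all tested genes. Of the 78, 0 passed the adjusted threshold. In edgeR 1 had an unadjusted p under 0.05, against 2.13% of all tested genes higher and 3.23% lower. Mrpl4 was at 16.9 ± 2.92 CPM over the vehicle mice and 21.3 ± 2.08 CPM over the doxorubicin mice, with a log2 fold change of 0.33 ± 0.142 (edgeR unadjusted p = 0.0432, adjusted p = 0.856), and Mrpl39 at 16.8 ± 1.21 CPM over the vehicle mice and 19.5 ± 1.52 CPM over the doxorubicin mice, with a log2 fold change of 0.22 ± 0.108. Groups did not overlap for 3 of the 78, Mrpl39, Mrps2 and Mrps12, all higher in doxorubicin bones. Over all tested genes 1.64% were higher and 1.95% lower without overlap. Eef2, Eif3a, Mrps2 and Mrps12 were named after their values were seen. The 78 genes share their libraries, so the 77 are not 77 separate observations. Their median deviation was -0.057 in vehicle mouse 3, where the cytosolic genes were 0.41 above their means. In doxorubicin mice 1 and 4, which had the most muscle RNA, it was 0.16 and 0.15. It was -0.11, 0.085 and -0.18 in vehicle mice 1, 2 and 4, and -0.15 and 0.085 in doxorubicin mice 2 and 3. The difference between the 2 families was not tested, and neither was the part of muscle RNA in it.

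**Figure D5:**
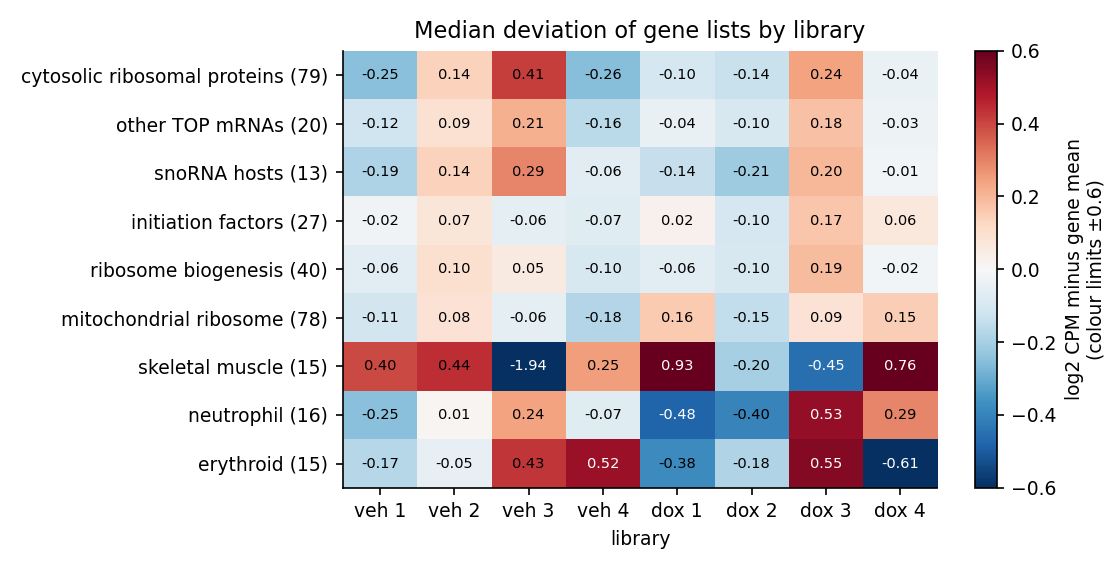
Median deviation of log2 CPM from each gene's mean over the 8 libraries, for 9 gene lists (rows, with the number of tested genes) and 8 libraries (columns); red is above and blue below the mean, and colours stop at 0.6 while the numbers do not. Vehicle mouse 3 is at 0.41 for the cytosolic ribosomal proteins, 0.21 for other TOP mRNAs, -0.057 for the mitochondrial ribosome and -1.94 for skeletal muscle.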

How the data were processed

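The deposited values are expected counts per gene from RNA-seq of 8 libraries, all whole numbers. Per the submitters' processing notes the tools include STAR 2.5.3a and RSEM 1.3.0, which divides reads between loci they fit equally; their settings and the annotation are not stated there, and the genome build named there is GRCh38, although the identifiers are mouse. Per the labels' protocols, poly-A libraries were stranded and carried molecular identifiers, whose use is not stated.

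The 17035 genes kept by filterByExpr (minimum count 10, minimum total 15) were fitted in edgeR 4.0.16 (R 4.3.3) by the robust quasi-likelihood test on counts scaled by TMM, two-sided, with Benjamini-Hochberg adjustment over all of them at 0.05; DESeq2 1.42.0 and limma 3.58.1 (voom) were alternatives. Library totals were 23699525 to 35747083 counts. CPM is TMM-scaled, log2 fold changes are doxorubicin over vehicle with SE from the F statistic, and errors are SD over 4 mice. Each mouse is a replicate. In none of the 28 library pairs did counts agree within sampling noise (chi-square over its degrees of freedom at least 29.0). Principal transcript lengths are from GENCODE M21, promoter windows from RefSeq. The fit was tried on simulated counts of independent genes with the same dispersion for all, a setting in which the members do not vary together. No sum over members was tested.

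The members, the gene lists and the tests were chosen with earlier results of these data known. The text names a set of ribosomal genes chosen by function, the members with the smallest p, the extreme fold changes and the extreme levels per kb, and the 2 genes of smallest p in each other list. Alternatives were other scalings, filters and tools, a replicate block, a marrow covariate, added pseudogene counts and each library left out; scaling to the members' counts and leaving out both mice numbered 3 were chosen after the data were seen. Named pseudogenes of members (306 rows for 61 genes) may share reads with them.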

Additional observations from a re-analysis of the deposited data

Results flagged for a closer look

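Among groups of 4 mice, 10 genes had 1 doxorubicin value far from the other 3, always the value of doxorubicin mouse 3 at the top. It was at 948 CPM for Rplp0, 377 for Rps26, 771 for Rps4x, 491 for Rpl11 and 787 for Rpl13a. It was at 239 CPM for Rpl37, 173 for Rpl38, 491 for Rpl41, 674 for Rpl23a and 679 for Rps12. The log2 ratio of Rpl3l to Rpl3 was at -4.59 in vehicle mouse 3, below the other 3 vehicle mice. In all, 11 of 90 groups examined stood out in this way. Chance marks about 1 in 20 groups, and the genes share their libraries, so the 10 genes are not 10 separate observations.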

How the results depend on the processing

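Under every scaling, filter and tool tried, 0 members passed an adjusted p of 0.05 and 0 reached an unadjusted p under 0.05, and the median log2 fold change of the members lay between -0.16 and 0.066 over all alternatives. It was -0.086 with library size as the only scaling, -0.066 with ribosomal protein genes out of the scaling, -0.055 with DESeq2 and -0.013 with limma-voom. Group means of the share of counts differed by -0.18 percentage points (doxorubicin minus vehicle). Mice carried the same numbers in both groups, and the labels state no reason to pair them. Libraries of 1 number had correlations of -0.27 to 0.43, and 5 of 8 libraries correlated best with their own number. Whether the numbers pair the mice was not tested, and the main test left them out. With the replicate block the members' median was -0.019, with 28 above and 51 below 0 and 0 called. The members' median SE was 0.142 with the block, against 0.188 in the main test. Of all tested genes, 8.61% with the block and 5.36% in the main test had an unadjusted p under 0.05 in edgeR. Some fold changes near 0 changed sign, and the cause was not tested. With the marrow covariate, Rplp1 was at 0.033, Rps19 at 0.054, Rpl5 at 0.025 and Rpl11 at 0.014. With DESeq2 size factors in edgeR, Rps6 was at -0.0071 and Rps27l at -0.0052. With library size alone, Rps6 was at -0.035 and Rps27l at -0.037. With ribosomal protein genes out of the scaling, Rps6 was at -0.018 and Rps27l at -0.017. With mitochondrial and haemoglobin genes out of the scaling, Rps6 was at -0.017 and Rps27l at -0.016. With no filter on low counts, Rps6 was at -0.0095 and Rps27l at -0.0080. In DESeq2, Rps6 was at -0.0071 and Rps27l at -0.0052. With named pseudogenes added, Rps6 was at -0.012. Without both mice numbered 3, Rps6 was at -0.0091, Rpl22 at 0.014, Rpl39l at 0.077 and Rpl22l1 at 0.010. Scaled to the members' own counts, Rps19 was at 0.0063 and Rpl39l at 0.026. Leaving out each library in turn gave log2 fold changes, or for ratios log2 differences, that crossed 0, from -0.16 to 0.066 for Rplp1, -0.16 to 0.0014 for Rplp2, -0.12 to 0.094 for Rps6, -0.18 to 0.090 for Rps19, -0.26 to 0.045 for Rps27, -0.12 to 0.097 for Rps27l and -0.27 to 0.057 for Rps27a. The ranges were -0.12 to 0.15 for Rpl3, -0.016 to 0.48 for Rpl3l, -0.18 to 0.075 for Rpl5, -0.21 to 0.071 for Rpl11, -0.23 to 0.073 for Rpl22, -0.30 to 0.0031 for Rpl34 and -0.32 to 0.00055 for Rpl36a. They were -0.41 to 0.0079 for Rpl39, -0.26 to 0.10 for Rpl39l, -0.31 to 0.0038 for Rpl41, -0.32 to 0.036 for Rpl22l1, -0.24 to 0.69 for the ratio Rpl3l to Rpl3 and -0.10 to 0.035 for the ratio Rpl22l1 to Rpl22. Depth left every tested member with at least 73 counts in each library.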

Other observations

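Rows named as pseudogenes of members held 0.510 to 0.864 percent as many counts as the members themselves, between 0.705 and 0.864 percent in the 4 vehicle libraries and between 0.510 and 0.807 percent in the 4 doxorubicin libraries. Genes with a pyrimidine tract near the annotated start were 0.59 above the other vehicle libraries in vehicle mouse 3 in the median (37 genes, log2 scale), and genes without one 0.51 (22 genes); the 2 sets were not compared by a test.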
